A study of Mus musculus with 6 samples.

Results

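Interferon-stimulated cells were the CD8 T cells of B16-OVA tumors that carried at least 5 UMIs, counted together, of Ifit1, Ifit3 and Rsad2, which are among the best known targets of interferon. They numbered 642 of the 15744 tumor cells that passed the filters, 398 of 8638 in the CD8-IFNγRKO tumor library and 244 of 7106 in the control tumor library. A cell passed the filters with 200 to 6000 genes, at most 3% of UMIs from mitochondrial genes and with Cd2, Cd8a and Cd8b1 each seen in 1 or more UMIs. The remaining 8240 and 6862 tumor cells are called other cells below. Of all 29156 filtered cells of the series, 13412 came from the draining lymph nodes (LN), where the same rule found 84 of 6754 cells in the CD8-IFNγRKO library and 60 of 6658 in the control library.

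Both groups of mice carried CD8-Cre and Rosa26Tomato, a red reporter that Cre switches on, and bore B16-OVA, a mouse melanoma line that makes ovalbumin. CD8-IFNγRKO mice also carried IFNgR1flox/flox, so that their CD8 T cells lose the chain of the IFNγ receptor that binds the ligand, while control mice kept it. Per the study's text, tissues were taken in the second or the third week after engraftment. Cells from 3 mice per group were sorted for CD45, CD3, CD8 and Tomato, and each genotype and tissue gave 1 library, and in the files used here no tag ties a cell to a mouse. Cre driven by CD8 regulatory sequences acts in mature CD8 T cells, so other cells of the tumor, and any CD8 T cell that escaped Cre, kept the receptor. The filtered cells held 94004352 UMIs in the CD8-IFNγRKO tumor library and 59500811 in the control tumor library, and the median cell had 9399.5 and 6306. The tumor libraries shared 169 barcodes, of which 72 were filtered cells in both and 1 was interferon-stimulated in both.

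Type I interferons bind IFNAR1 and IFNAR2 and act through JAK1, TYK2 and a complex that holds STAT2 and IRF9 and recognises the interferon-stimulated response element (ISRE) of antiviral genes. IFNγ binds IFNGR1, signals with IFNGR2 through JAK1 and JAK2, and its targets often carry the gamma-activated site (GAS). The target genes of both pathways overlap, and IRF1, itself a GAS target, can act on ISRE-like sites. A small set of T cells with high levels of antiviral interferon targets is often found in single-cell data from tumors and lymph nodes.

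The promoters of the 3 choosing genes and of Isg15, with Irf1 as a GAS example, are printed because the levels described here are read out from genes of these 2 kinds. Each line gives bases 160 to 51 before the RefSeq start on GRCm38.p6, 5′ to 3′ along the gene, and capitals mark matches of the ISRE core GAAANNGAA, or in Irf1 of the GAS letters TTCNNNGAA, searched on both strands. RefSeq gives Irf1 another start, whose window had 0 GAS matches and is not shown.
Ifit1 (chr19:34640729-34640838, + strand): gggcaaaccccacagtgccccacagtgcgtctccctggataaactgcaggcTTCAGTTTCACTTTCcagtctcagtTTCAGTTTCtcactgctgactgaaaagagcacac
Ifit3 (chr19:34583369-34583478, + strand): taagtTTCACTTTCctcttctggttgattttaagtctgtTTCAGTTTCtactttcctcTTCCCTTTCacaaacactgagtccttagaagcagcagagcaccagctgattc
Rsad2 (chr12:26456503-26456612, - strand): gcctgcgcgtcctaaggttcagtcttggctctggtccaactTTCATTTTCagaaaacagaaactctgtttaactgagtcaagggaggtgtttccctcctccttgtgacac
Isg15 (chr4:156200869-156200978, - strand): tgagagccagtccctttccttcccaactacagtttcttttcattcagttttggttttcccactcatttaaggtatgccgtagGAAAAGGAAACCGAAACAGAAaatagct
Irf1 (chr11:53769854-53769963, + strand): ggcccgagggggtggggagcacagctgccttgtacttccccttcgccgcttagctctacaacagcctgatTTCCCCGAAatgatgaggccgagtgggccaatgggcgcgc
Matches that overlap were joined into 1 run of capitals, in which a match on the other strand appears as its reverse complement. In windows from 250 bases before to 50 after the start, the ISRE core was found for 3 of the 3 choosing genes, 24 of 46 matched genes of the type I list (52.2%) and 15 of 30 of the IFNγ-response list, against 9.76% of all 27025 genes. Per window rather than per gene, the ISRE core stood in 8.56% of 32851 windows and the GAS letters in 8.30%. The GAS letters were found for 7 of 46 type I genes (15.2%) and 10 of 30 IFNγ-response genes (33.3%), against 9.55% of all genes. These matches describe letters and not binding.

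The choosing genes give the following levels, which the rule sets and which are a description only. Levels are pooled CPM, counts of a gene scaled to 1000000 UMIs over all cells of a set, with exact 95% Poisson intervals that, like all intervals here, cover counting error only. Ifit1, an RNA-binding antiviral protein, reached 296 CPM (281 to 311) in CD8-IFNγRKO interferon-stimulated cells and 436 (411 to 462) in control ones, against 15.8 and 18.1 in other cells. Ifit3, its partner, reached 290.3 and 293 CPM, against 14.3 and 11.5. Rsad2, which encodes viperin, reached 178 and 197 CPM, against 8.69 and 6.37.

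Of the 3 genes, Ifit1 gave 38.7% of the choosing UMIs in the CD8-IFNγRKO library and 47.1% in the control library, Ifit3 38.0% and 31.6%, and Rsad2 23.3% and 21.2%. All 3 genes were seen in 61.8% and 61.5% of the interferon-stimulated cells. The median cell held 8 such UMIs in both libraries, the highest 43 and 34, and 32 and 24 cells held 20 or more. In cells with 5 UMIs, just inside the limit, the type I list summed to 12840 CPM in the CD8-IFNγRKO library (83 cells) and 10493 in the control library (54 cells), and in cells with 4, just outside, to 12207 (121 cells) and 10531 (89 cells). The cells on both sides of the limit thus had similar levels of the list.

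**Figure D1:**
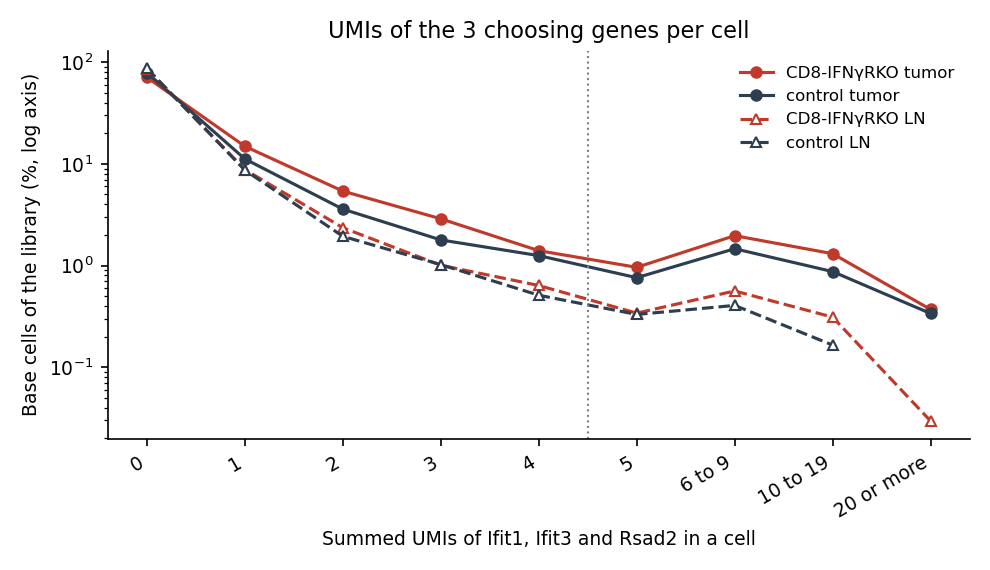
Share of filtered cells (percent, log axis) by their summed UMIs of Ifit1, Ifit3 and Rsad2 in each library; classes from 6 to 9 on are wider, which makes the bump there, and the dotted line marks the limit of 5. Both tumor libraries (solid) lie above both LN libraries (dashed) from 1 UMI on, and 0 of the control LN cells reached 20 UMIs. Cells were not thinned here, and LN cells were shallower.

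As a share of filtered tumor cells, interferon-stimulated cells made up 4.61% in the CD8-IFNγRKO library (exact Clopper-Pearson 95% interval, 4.18 to 5.07) and 3.43% in the control library (3.02 to 3.88), so that these intervals did not overlap. The libraries differed in depth, and a limit in UMIs is reached more easily by deep cells. Interferon-stimulated cells had a median of 10207 UMIs, against 9353 in other cells, in the CD8-IFNγRKO library, and 7777.5 against 6265 in the control library. After each cell was thinned to 1600 UMIs, 3.66% (3.27 to 4.09) and 3.33% (2.90 to 3.8) of the cells held 2 or more choosing UMIs, with 278 and 704 shallower cells left out. At 4000 UMIs, 1.33% (1.08 to 1.63) and 1.43% (1.12 to 1.79) held 5 or more, with 1746 and 1853 cells left out. With the limits exchanged, the shares were 0.574% and 0.609% for 5 or more choosing UMIs at 1600 UMIs, and 6.50% and 5.86% for 2 or more at 4000 UMIs. At equal depth the intervals overlapped in each of these 4 comparisons, and the order of the genotypes followed the limit on UMIs, with CD8-IFNγRKO higher at 2 and lower at 5. In the LN the shares were 1.24% (0.993 to 1.54) and 0.901% (0.688 to 1.16), from shallower cells with medians of 3865.5 and 4052.5 UMIs. Thinned to 4000 UMIs, 1.01% (0.690 to 1.44) and 0.697% (0.447 to 1.03) of LN cells held 5 or more choosing UMIs. In the CD8-IFNγRKO libraries this interval overlapped that of the tumor, and in the control libraries it did not. At 1600 UMIs, 1.83% and 1.40% held 2 or more. At that depth 0.387% (0.253 to 0.567) and 0.0156% (0.000394 to 0.0867), the latter 1 cell, held 5 or more, and these intervals did not overlap.

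Across the genes with at least 50 CPM in a set and 100 UMIs in all, 103 of 3118 (3.3%) were at least 1.5-fold higher in interferon-stimulated than in other cells in both tumor libraries, and 3 (0.0962%) were at least 1.5-fold lower. The choice of the cells fixes this contrast, so these counts describe the cells and test nothing. Of the 103 genes, 43 were on the type I list, 13 on the IFNγ-response list only and 42 on no list. The median gene of all 3118 lay at a log2 ratio of -0.03 in the CD8-IFNγRKO library and -0.04 in the control library.

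**Figure D2:**
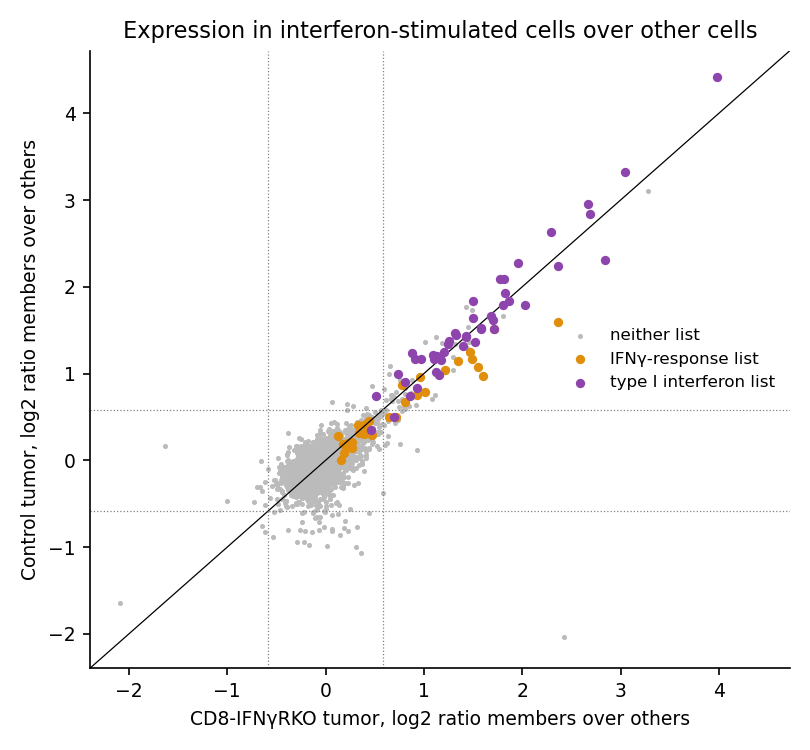
Log2 ratio of pooled CPM, interferon-stimulated over other cells, in the CD8-IFNγRKO tumor library (x axis) and the control tumor library (y axis), 1 point per gene without the 3 choosing genes; dotted lines mark 1.5-fold and the solid line equality. Type I genes (purple) lie far to the upper right, most IFNγ-response genes (orange) between these and 0, and Cd74 stands alone at the lower right with 2.43 and -2.04.

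Targets of type I interferon other than the choosing genes were higher in these cells throughout the list. Of 53 list genes with a value in both libraries, 50 were 1.5-fold or more higher in both, beside 3.3% of all genes ranked, and the list medians were log2 1.52 in the CD8-IFNγRKO library and 1.51 in the control library. Summed over the list, the level was 14740 CPM against 7517 in other cells of the CD8-IFNγRKO library, and 13522 against 6578 in the control library.

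The 4 most abundant genes of the list differed in how far they stood above the other cells. Ifi27l2a, a small mitochondrial interferon target, reached 4331 CPM (4274 to 4389) in CD8-IFNγRKO and 3471 (3400 to 3543) in control interferon-stimulated cells, against 3025 and 2074 in other cells, which is a log2 ratio of 0.52 and 0.74. Ms4a4b, a membrane protein of T cells, reached 1876 and 2203 CPM against 1362 and 1727, with log2 ratios of 0.46 and 0.35. These 2 genes were already high in most cells and differed least. Isg15, a ubiquitin-like protein that is joined to other proteins during antiviral responses, reached 922 CPM (896 to 949) and 917 (880 to 954), against 145 and 119 in other cells. Its log2 ratio was 2.67 (2.62 to 2.72) and 2.95 (2.88 to 3.02). Bst2, or tetherin, which holds budding viruses at the cell surface, reached 539 and 395 CPM, against 287 and 175, with log2 ratios of 0.91 and 1.17.

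Further down the list stood antiviral effectors and sensors, named here after their values were seen. Ifit3b had the largest log2 ratios among the genes of the list with 50 CPM or more, 3.98 and 4.42, but it is a near copy of Ifit3 and reads may be shared between them. Cmpk2, a nucleotide kinase that lies beside Rsad2, had 3.04 and 3.32. The sensors of viral RNA Ddx58 (1.52 and 1.36), Ifih1 (1.77 and 2.09) and Dhx58 (1.5 and 1.84), the DNA and Z-form sensor Zbp1 (1.25 and 1.38), and the apoptosis-linked Xaf1 (1.31 and 1.47) and Daxx (1.82 and 2.09) were all more than 1.5-fold higher in both libraries. The RNA-activated kinase Eif2ak2 stood at 1.25 and 1.35, and Oas3, which makes the activator of RNase L, at 1.58 and 1.51.

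**Figure D3:**
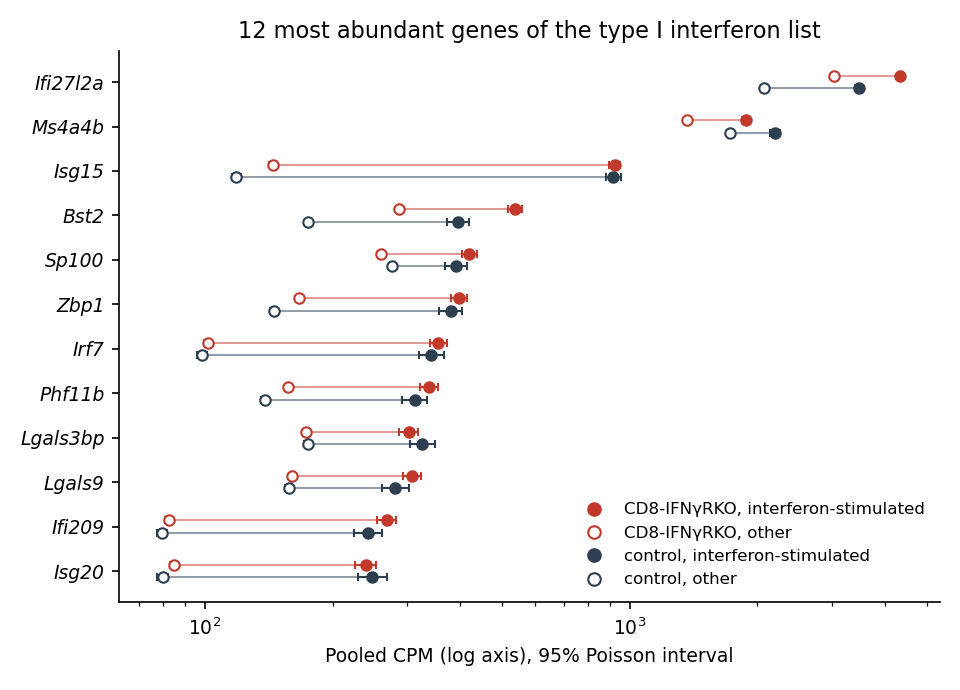
Pooled CPM (log axis) with 95% Poisson intervals of the 12 most abundant genes of the type I list; filled points are interferon-stimulated cells, open points other cells, red the CD8-IFNγRKO and dark blue the control tumor library. In each of the 24 pairs the filled point lies to the right, with Isg15 at 922 and 917 CPM against 145 and 119 the widest apart.

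Thinned to 1600 UMIs, a median interferon-stimulated cell held UMIs of 14 genes of the type I list in the CD8-IFNγRKO library and 13 in the control library, against 6 and 5 in other cells. In cells grouped by their choosing UMIs, the level of the list followed these UMIs also below the limit. It was 6731 CPM in CD8-IFNγRKO cells with 0 choosing UMIs, 9700 in those with 1 to 4, 13493 with 5 to 9, 15788 with 10 to 19 and 19746 with 20 or more. In control cells it was 6015, 8402, 11673, 15279 and 22202 CPM. Among interferon-stimulated cells, the CPM of the choosing genes and of the type I list had a Spearman rho of 0.71 over 398 cells and 0.70 over 244. The 2 measures share each cell's depth, so this is a description.

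The receptor genes were within 1.5-fold of other cells in at least 1 library. Ifngr1, the deleted gene, stood at 267 CPM (253 to 282) in CD8-IFNγRKO interferon-stimulated cells, against 236 (233 to 239) in other cells, and at 735 (703 to 768) against 717 (710 to 724) in the control library. The LN gave 111 and 206 CPM in interferon-stimulated cells and 137 and 182 in other cells of the CD8-IFNγRKO and control libraries. In both sets of tumor cells the CD8-IFNγRKO level was the lower one, by a log2 ratio of -1.46 (-1.56 to -1.36) in interferon-stimulated cells and -1.60 (-1.63 to -1.58) in other cells. The library reads the 5′ ends of transcripts, and reads upstream of a deleted part are still counted. The UMIs that remain therefore do not tell how many cells kept an intact gene. At 1600 UMIs per cell, Ifngr1 was seen in 36.5% (31.8 to 41.5) of CD8-IFNγRKO interferon-stimulated cells and 33.3% of other cells, and in 70.5% (64.3 to 76.1) and 68.6% in the control library. Along the groups of choosing UMIs it was 225, 266, 272, 276 and 208 CPM in the CD8-IFNγRKO library and 718, 715, 726, 695 and 924 in the control library.

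Ifngr2, the signalling chain of the same receptor, was near 0 in all sets of the tumor, with 0.592 CPM (0.122 to 1.73) in CD8-IFNγRKO and 0 (0 to 1.40) in control interferon-stimulated cells, and 0.506 and 0.668 in other cells. In LN interferon-stimulated cells it stood at 30.2 and 24.0 CPM. Ifnar1, a chain of the type I receptor, stood at 55.3 and 85.3 CPM in interferon-stimulated cells against 50.2 and 86.1. Ifnar2, the other chain, stood at 54.9 against 37.6 in the CD8-IFNγRKO library, a log2 ratio of 0.55 (0.37 to 0.72), and at 47.0 against 43.0 in the control library, 0.13 (-0.14 to 0.39). The receptor genes thus gave no difference of 1.5-fold that both libraries shared.

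Among the genes of signal transduction, Stat2 stood out from the kinases. Stat2, which is specific to type I and type III signals, stood at 57.3 against 16.4 and 42.8 against 13.5, with 1.81 (1.62 to 1.99) and 1.67 (1.37 to 1.95). Irf9, the DNA-binding part of the same complex, had 0.53 and 0.47, under 1.5-fold. The kinases were within 1.5-fold of other cells, with Jak1 at 0.06 and 0.10, Tyk2 at 0.02 and 0.04 and Jak2 at 0.35 and 0.32, and Stat3 stood at 0.09 and 0.10. Stat2 was thus further above other cells than Irf9 in both libraries.

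Among 11 genes on the list of interferon regulatory factors, Irf7, which amplifies the type I response, was the only one 1.5-fold or more higher in both libraries, beside 3.3% of all genes ranked. It stood at 354 CPM against 102 in the CD8-IFNγRKO library and 342 against 98.7 in the control library, log2 ratios of 1.80 and 1.79. Irf1, a main target of IFNγ, stood at 228 CPM against 189 and at 367 against 317, with 0.27 (0.18 to 0.36) and 0.21 (0.12 to 0.31). Irf2, which competes with Irf1 for its sites, had 0.57 and 0.33, and Irf8 0.00 and -0.04. Irf7 thus stood further above other cells than Irf1 in both libraries.

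Of 7 negative regulators, Usp18 and Socs1 passed 1.5-fold in both libraries, beside 3.3% of all genes ranked. Usp18, which takes ISG15 off proteins and blocks IFNAR2 signalling, stood at 246 CPM (232 to 260.0) against 38.2 in the CD8-IFNγRKO library and 155 (140.0 to 170.4) against 21.5 in the control library, log2 ratios of 2.69 and 2.84. Socs1, an inhibitor of JAK kinases, stood at 105 against 55.2 and 131 against 77.3, with 0.93 and 0.76. Socs3, a related inhibitor, had 0.74 in the CD8-IFNγRKO library and 0.46 in the control library. Ptpn6, the phosphatase SHP-1, lay at -0.25 and -0.11.

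Ifng, the ligand that these T cells make themselves, did not differ by 1.5-fold when pooled over all interferon-stimulated cells. It stood at 453 CPM (435 to 472) against 423 in the CD8-IFNγRKO library and 478 (452 to 505) against 474 in the control library. Along the groups of choosing UMIs, Ifng was 437, 384, 359, 411 and 1211 CPM in the CD8-IFNγRKO library. In the control library it was 471, 483, 487, 449 and 497, and the last group held 32 and 24 cells. The sensors of the same list, Tmem173 (STING; 0.07 and 0.08), Tbk1 (-0.05 and 0.14) and Cgas (0.33 and 0.17), were also within 1.5-fold of the other cells. Tlr7 was the 1 of 6 genes of this list past 1.5-fold in both libraries, beside 3.3% of all genes ranked. This receptor for single-stranded RNA, named after its value was seen, stood at 3.75 CPM against 0.899 and 3.79 against 0.686. These values rest on 19 and 10 UMIs in interferon-stimulated cells. Cxcl10, a chemokine that both interferons induce and that was named after its value was seen, stood at 111 CPM (102 to 120) against 11.4 and at 109.9 (97.6 to 123) against 12.8, log2 ratios of 3.28 and 3.11. It was the cytokine furthest above the other cells in both libraries among those with 50 CPM or more.

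The IFNγ-response list lay between the type I list and the other genes. Its medians were log2 0.47 in the CD8-IFNγRKO library and 0.45 in the control library, and 16 of 42 genes were 1.5-fold or more higher in both, beside 3.3% of all genes ranked. Its genes fell into groups of unlike size of difference, a split made after the values had been seen. The 16 guanylate-binding proteins and immunity-related GTPases, which attack membranes around microbes inside cells, had medians of 1.40 and 1.01, and 16 and 14 of them reached 1.5-fold, beside 3.82% and 3.5% of all genes in these libraries. The 16 genes of MHC class I and antigen processing had medians of 0.27 and 0.20, and 1 and 0 reached 1.5-fold.

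For example, Gbp2 stood at 136 CPM (126 to 146) against 46.4 in the CD8-IFNγRKO library and 132 (118 to 147) against 62.6 in the control library, and the GTPase Igtp at 196 (184 to 208) against 64.5 and 193 (177 to 211) against 98.8. H2-K1, a classical MHC class I heavy chain, stood at 2855 CPM against 2383 and 3243 against 2886, with log2 ratios of 0.26 and 0.17. B2m, the light chain, had 0.21 and 0.18, and H2-D1 0.18 and 0.08. Ly6a (Sca-1), on neither group, had 0.33 and 0.41. Outside both groups, Cd274, which encodes PD-L1, had 0.96 in each library and was the only other gene besides Socs1 to pass 1.5-fold in both.

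Between genotypes, the GTPase genes showed a smaller difference in interferon-stimulated cells than in other cells. Their summed level was 1640 CPM (1604 to 1675) in CD8-IFNγRKO and 1716 (1666 to 1767) in control interferon-stimulated cells, and 678 (673 to 684) and 844 (836 to 851) in other cells. The log2 ratio of CD8-IFNγRKO over control was therefore -0.07 (-0.12 to -0.01) in interferon-stimulated cells and -0.32 (-0.33 to -0.30) in other cells. Gene by gene, 10 of 16 were lower in CD8-IFNγRKO interferon-stimulated cells and 14 of 16 were lower in CD8-IFNγRKO other cells. Of all genes, 48.2% and 47.1% were lower in these 2 sets. With 1 library per genotype, neither the genotype difference nor the difference between both sets of cells could be tested.

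Igtp had a log2 ratio of 0.02 (-0.14 to 0.17) between genotypes in interferon-stimulated cells and -0.62 (-0.67 to -0.56) in other cells. The same values for Iigp1 were -0.16 (-0.57 to 0.25) and -1.05 (-1.25 to -0.85). For Tgtp1, whose reads may be shared with Tgtp2, they were -0.19 (-0.48 to 0.11) and -0.95 (-1.08 to -0.82), and for Gbp2 0.04 (-0.15 to 0.23) and -0.43 (-0.50 to -0.37). These 4 genes were picked after their values were seen. Gbp6 and Gbp10, near copies of each other, remained lower in CD8-IFNγRKO interferon-stimulated cells, at -0.31 and -0.38, as did Irf1 at -0.69 (-0.81 to -0.56) beside -0.75 (-0.78 to -0.72) in other cells. For MHC class I and antigen processing, the summed ratio was -0.08 in interferon-stimulated and -0.15 in other cells. The remaining genes of the list went the other way, with a summed ratio of -0.10 in interferon-stimulated and -0.04 in other cells and medians of -0.51 and -0.42.

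**Figure D4:**
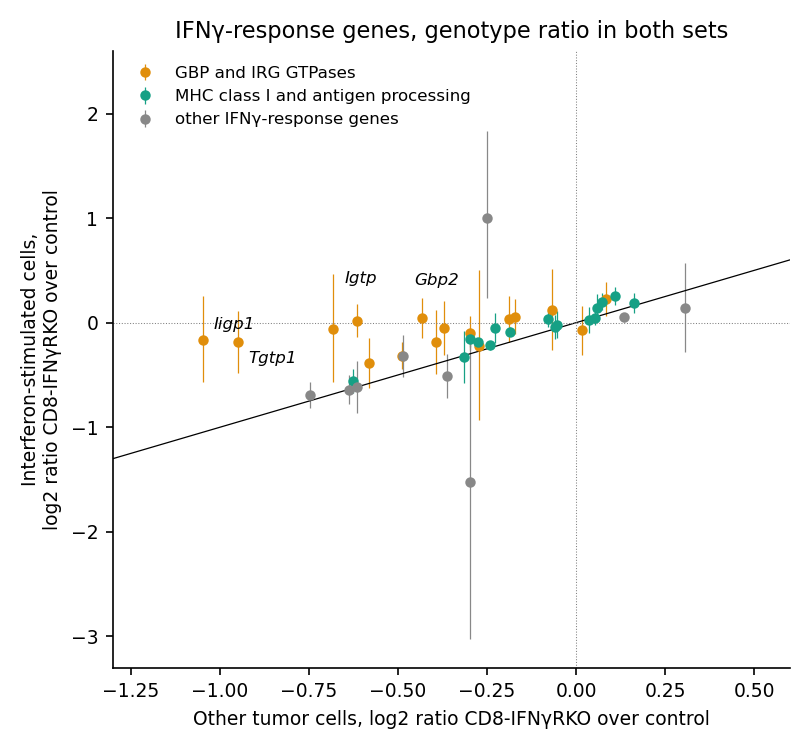
Log2 ratio of CD8-IFNγRKO over control for each gene of the IFNγ-response list in other tumor cells (x axis) and in interferon-stimulated cells (y axis, with 95% counting intervals); the solid line marks equal ratios. GTPase genes (orange) other than Gbp3 lie above the line, most of them at the left, with Iigp1 at -1.05 on the x axis and -0.16 on the y axis, while genes of MHC class I and antigen processing (green) lie near it.

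Read along the choosing UMIs, the summed GTPase level was 599 CPM in CD8-IFNγRKO cells with 0 such UMIs and 776 in control cells. It was 897 and 1064 with 1 to 4, 1452 (1410.0 to 1495) and 1512 (1454 to 1571) with 5 to 9, 1770.3 (1703 to 1840) and 1986 (1882 to 2095) with 10 to 19, and 2476 (2336 to 2623) and 2446 (2248 to 2657) with 20 or more. The intervals of both libraries overlapped from 5 to 9 and at 20 or more, and did not overlap in the group with 10 to 19. The narrowing was thus not even over the groups. In the LN, the summed level was 2033 (1896 to 2178) and 2156 (2010 to 2310) in interferon-stimulated cells and 551 and 737 in other cells, with log2 ratios of -0.08 (-0.23 to 0.06) and -0.42 (-0.45 to -0.39) between genotypes.

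**Figure D5:**
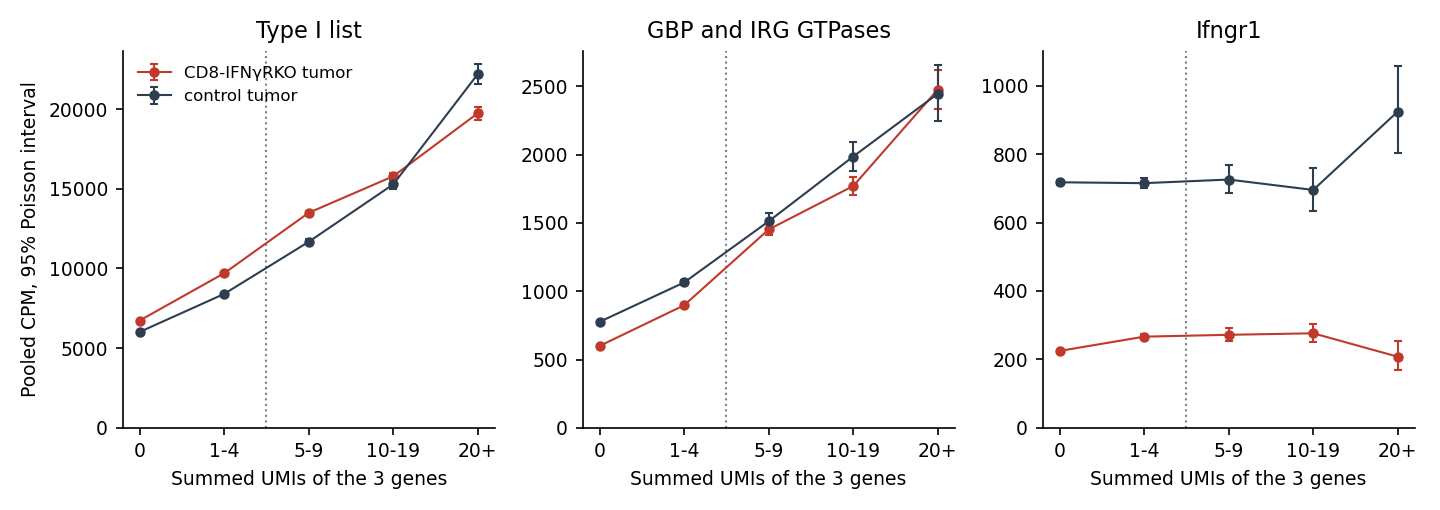
Pooled CPM with 95% Poisson intervals against the summed UMIs of the 3 choosing genes per cell, for the type I list (left), the GBP and IRG GTPases (middle) and Ifngr1 (right), red for the CD8-IFNγRKO and dark blue for the control tumor library; the dotted line marks the limit of 5. The first 2 sums rise with the choosing UMIs in both libraries, whereas Ifngr1 stays between 208 and 276 CPM in the CD8-IFNγRKO library and between 695 and 924 in the control library.

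For the type I list, the median of CD8-IFNγRKO over control, on the log2 scale, was 0.13 in interferon-stimulated cells and 0.22 in other cells, beside 0.02 over all genes ranked in each set. Isg15 had 0.01 (-0.06 to 0.08) in interferon-stimulated cells and 0.28 (0.24 to 0.33) in other cells, and Irf7 0.05 and 0.04. Of the list, 6 of 53 genes with 20 or more UMIs were 1.5-fold or more higher in CD8-IFNγRKO interferon-stimulated cells and 0 lower, beside 5.67% and 4.89% of all genes, and 10 of 56 were higher and 2 lower in other cells, beside 4.85% and 4.55%. Usp18 was among the higher ones in both sets, at 0.67 (0.51 to 0.83) and 0.83 (0.73 to 0.92). Ratios of the 3 choosing genes between genotypes are not read here, because the rule that chose the cells shapes them in both sets.

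Over all genes, 168 of 2964 (5.67%) were 1.5-fold or more higher and 145 (4.89%) 1.5-fold or more lower in CD8-IFNγRKO than in control interferon-stimulated cells. Of these, which had to pass the minimum of 50 CPM and 100 UMIs, 3 higher genes were on the type I list, 3 lower genes on the IFNγ-response list, and 115 and 112 on no list. The ratio in other cells is given beside each gene below, and no difference between the 2 sets was tested.

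Heat shock and cell division genes gave 4 of the 8 highest ratios, and Gm43305, of which no role is stated here, the highest, with 3.90 in interferon-stimulated cells and 2.95 in other cells. Hspa1a, an inducible HSP70 chaperone, stood at 932 CPM (906 to 959) in CD8-IFNγRKO and 125 (112 to 139) in control interferon-stimulated cells, a log2 ratio of 2.90 beside 1.84 in other cells, and its near copy Hspa1b, with which it may share reads, had 2.22 beside 1.63. Ube2c, a ubiquitin enzyme of mitotic exit, stood at 408 (391 to 426) against 114 (102 to 128), 1.84 beside 0.41. The mitotic kinase Plk1 had 1.73 (1.27 to 2.22) beside 0.83. With a limit of 3 choosing UMIs, Ube2c had 1.04 and Plk1 1.19. Xcl1, a chemokine that draws cross-presenting dendritic cells, stood at 125 (115 to 135) against 25.4 (19.7 to 32.3), 2.29 beside 1.64. The ratio of Xcl1 was larger when 500 CPM and 2 UMIs of the choosing genes were required. Fdps, an enzyme of the sterol pathway, had 1.71 beside 1.53. The 9 heat shock genes had a median of 1.02 beside 0.86, so that this difference and the deeper counts of the CD8-IFNγRKO library went along with genotype in both sets, and their part in the other ratios was not tested.

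Cd74, the invariant chain of MHC class II, is a gene of antigen-presenting cells. It stood at 60.8 CPM in CD8-IFNγRKO and 12.9 in control interferon-stimulated cells, a log2 ratio of 2.24 (1.72 to 2.79), whereas other cells had -2.23. Of 660 UMIs of 10 macrophage and dendritic cell genes in CD8-IFNγRKO interferon-stimulated cells, 545 lay in 2 cells. Without cells that held 3 or more of these UMIs the ratio was -0.53.

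The lowest ratio was that of Areg, described first among the 8 lowest. Areg, a growth factor of the EGF family, stood at 4.54 CPM (2.88 to 6.82) in CD8-IFNγRKO and 137 (123 to 152) in control interferon-stimulated cells, a log2 ratio of -4.92 beside -3.12 in other cells. Within the CD8-IFNγRKO library it was lower in interferon-stimulated than in other cells, at 4.54 against 14.1 CPM. Gzmd stood at 21.3 against 207 and Gzme at 40.9 against 319, granzymes with -3.28 and -2.96 beside -2.74 and -2.86. The protease inhibitor Serpine2 had -2.23 beside -2.14, osteopontin (Spp1) -2.10 beside -1.62, the macrophage growth factor Csf1 -2.09 beside -1.90, Ifitm1, a membrane restriction factor, -2.56 beside -2.16, and Nrn1 -1.99 beside -1.60. All 8 lowest genes were thus also lower in CD8-IFNγRKO other cells. Other rules for choosing the cells, given below with the processing, changed the size of the ratios of Areg, Gzmd, Gzme, Ifitm1, Nrn1 and Spp1. Their direction stayed the same.

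Genes of exhaustion were close to their level in other cells of the same library. Of 14 exhaustion genes, 0 were 1.5-fold higher or lower in both libraries, beside 3.3% and 0.0962% of all genes, and the list medians were 0.06 and 0.01. Pdcd1, which encodes the receptor PD-1, stood at 628 CPM (606 to 650.1) against 618 in the CD8-IFNγRKO library and 815 (780.5 to 850) against 818 in the control library. Lag3 had log2 ratios of 0.13 and 0.04, Ctla4 0.14 and 0.18, and Cxcr6, a homing receptor, 0.03 and -0.03. At 1600 UMIs per cell, Havcr2 and Lag3 were seen together in 13.6% (10.4 to 17.4) against 14.7% of cells and in 24.2% (18.9 to 30.1) against 27.4%. The unthinned shares were 63.6% against 64.6% and 72.5% against 67.3%.

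Between genotypes, exhaustion genes were lower in CD8-IFNγRKO interferon-stimulated cells by a median of -0.38, beside -0.32 in other cells, with Lag3 at -0.73 (-0.81 to -0.65) and Pdcd1 at -0.38 (-0.45 to -0.30). Cytotoxic genes had list medians of -0.04 and 0.04 against other cells. Gzmb, a main granzyme, stood at 5249 CPM against 4851 and 4424 against 3309, with 0.11 and 0.42, perforin (Prf1) had -0.25 and -0.09, and Nkg7 0.06 and 0.03. Gzma, chosen after its value was seen, was the gene of this list higher by 1.5-fold in both libraries, at 268 CPM against 169 and 90.6 against 42.6, and Gzmg, at 0.592 CPM against 1.35 and 5.31 against 26.7, was the gene lower by 1.5-fold in both, though the first value rests on 3 UMIs and its log2 ratio of -1.19 has an interval of -3.49 to 0.39. These are 1 of 18 genes in each direction, beside 3.3% and 0.0962% of all genes.

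Stem-like and naive-like genes gave unlike values in the 2 libraries. The list median against other cells was 0.17 in the CD8-IFNγRKO library and -0.32 in the control library, and 0 of 16 genes passed 1.5-fold in the same direction in both, beside 3.3% and 0.0962% of all genes. By library, 3 were 1.5-fold or more higher in CD8-IFNγRKO cells, beside 3.82%, and 5 were 1.5-fold or more lower in control cells, beside 1.25%. Between genotypes, 11 of 16 were 1.5-fold or more higher in CD8-IFNγRKO interferon-stimulated cells, beside 5.67%, with a median of 0.74, and 4 of 16 in other cells, beside 4.85%, with a median of 0.42. Tcf7, the factor TCF1 of stem-like T cells, stood at 32.8 CPM (28.0 to 38.2) against 20.9 in the CD8-IFNγRKO library and at 11 (7.36 to 15.8) against 14.3 in the control library. Klf2, a factor of circulating T cells, had 0.52 (0.45 to 0.59) and 0.17 (0.03 to 0.30). Tcf7 was named after its values were seen. At 1600 UMIs, Tcf7 and Pdcd1 were seen together in 5 of 397 CD8-IFNγRKO interferon-stimulated cells (1.26%, 0.410 to 2.91) and 3 of 244 control ones (1.23%, 0.254 to 3.55), against 1.19% and 0.747% of other cells, and the full counts gave 8.04% and 4.92% against 4.21% and 2.61%.

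The cell cycle separated the libraries as well. The 22 S phase genes had medians of -0.30 and -0.31 against other cells, and all 22 in the CD8-IFNγRKO library and 21 in the control library were lower by any amount, beside 59.3% and 59.2% of all genes. The 22 G2/M genes had medians of 0.04 in the CD8-IFNγRKO library and -0.64 in the control library, where 13 were 1.5-fold or more lower, beside 1.25% of all genes. Ube2c stood at 408 CPM against 317 in other cells of the CD8-IFNγRKO library and at 114 against 239 in the control library, and Hmgb2, a chromatin protein of dividing cells, at 1221 against 1238 and 672 against 859.9. At 1600 UMIs, Mki67 and Top2a were seen together in 38 of 397 CD8-IFNγRKO (9.57%, 6.86 to 12.9) and 5 of 244 control interferon-stimulated cells (2.05%, 0.669 to 4.72), against 7.90% and 4.73% of other cells, and unthinned in 36.9% and 17.6%, against 35.2% and 18.9%. All 22 G2/M genes were 1.5-fold or more higher in CD8-IFNγRKO than in control interferon-stimulated cells, beside 5.67% of all genes, with a list median of 1.32, and 11 of 22 in other cells, beside 4.85%, with a median of 0.56. Whether these 2 medians differ was not tested.

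Outside the lists, the 12 genes furthest above other cells in both libraries were Ifi214, Phf11a, Ifi211, Phf11c, Trafd1, Samhd1, 9930111J21Rik2, Aftph, Hsh2d, Jaml, Ehd4 and Pml, with log2 ratios from 1.13 to 1.70 in the CD8-IFNγRKO library and 1.19 to 1.77 in the control library. Samhd1, which breaks down the nucleotides that viruses need, stood at 427 CPM (409 to 446) against 172 and 612 (583 to 643) against 241. Trafd1, a brake on innate signals, stood at 164 against 59.5 and 153 against 59.2, and Pml, the scaffold of nuclear bodies, at 122 against 56.0 and 130.4 against 48.5. Aftph, a trafficking protein, stood at 99.7 against 40.7 and 105 against 46.3. Jaml, an adhesion molecule, had 1.13 and 1.19. The Phf11 genes and the Ifi200 genes (Ifi211 and Ifi214) are families of near copies, and their reads may be shared.

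The 3 genes lower by 1.5-fold or more in both libraries were Ccl1, Serpinb9b and Hist1h2af. Ccl1, a chemokine of activated T cells on the cytokine list and named after its value was seen, stood at 5.73 CPM (3.84 to 8.22) against 24.4 in the CD8-IFNγRKO library and 16.3 (11.8 to 22) against 50.8 in the control library, log2 ratios of -2.09 and -1.64. Serpinb9b, a granzyme inhibitor, stood at 77.0 against 118 and 83.8 against 148. Hist1h2af, 1 of many like histone genes whose reads may be shared, had -0.65 and -0.75. Of the remaining lowest genes, Hist1h2ab and Hist1h1a are replication histones, Srm and Uck2 make polyamines and nucleotides, Il1r2 is a decoy receptor for IL-1, Fabp5 binds fatty acids, Mt2 binds metals and Kpnb1 carries proteins into the nucleus, beside Dctpp1 and Ppp1r14b. With limits of 3 and 10 choosing UMIs, Serpinb9b stood at -0.38 and -0.34 in the control library and Hist1h2af at -0.55 and -0.34, under 1.5-fold. The ratios of the remaining lowest genes lay between -0.73 and -0.41 in the CD8-IFNγRKO library and between -0.89 and -0.43 in the control library.

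Markers of other cell types were checked beside these results. CD8 T cell genes had list medians of 0.10 and 0.00 against other cells. Of these 12 genes, 0 passed 1.5-fold in either library, a count near the share of all genes. Of all 3118 genes ranked, 119 and 109 were 1.5-fold or more higher in the CD8-IFNγRKO and control libraries, and 13 and 39 were lower. Macrophage and dendritic cell markers summed to 394 CPM in CD8-IFNγRKO interferon-stimulated cells against 298 in other cells, and 333 against 426 in the control library, with Cst3 the most abundant (182 and 227 CPM, log2 ratios of -0.22 and -0.12). In the CD8-IFNγRKO library 12 of 14 markers were higher, beside 40.7% of all genes, and 10 of them by 1.5-fold or more, beside 3.82%, and the median lay at 2.02 on the log2 scale. In the control library 3 of 13 were higher, beside 40.8%, and 6 lower by 1.5-fold or more, beside 1.25%, with a median of -0.19. Siglech, which marks plasmacytoid dendritic cells, and Flt3 were at 0 in all interferon-stimulated cells. The 10 stricter genes summed to 130.3 CPM against 24.3 in the CD8-IFNγRKO library, with a median log2 ratio of 3.13 over 8 genes, and to 22.7 against 90.6 in the control library, with -1.18, so that the libraries differed in direction. The higher sum in CD8-IFNγRKO interferon-stimulated cells rests largely on 2 cells, which held 545 of its 660 UMIs. Whether the values of the longer marker list also rest on these cells was not tested. Cells with 3 or more UMIs of the 10 stricter macrophage and dendritic cell genes made up 3.02% (1.57 to 5.21) against 1.32%, and 2.46% (0.908 to 5.28) against 2.0%. Without such cells the type I list medians were 1.49 and 1.51. The B cell markers Ms4a1, Cd79a and Pax5 and the NK marker Ncr1 were at 0, while Cd79b gave 19 UMIs in the CD8-IFNγRKO library and 0 in the control library, and Foxp3, of regulatory T cells, gave 0 and 4 UMIs. At 1600 UMIs per cell Cd79a was seen in 0 of 397 and 0 of 244 interferon-stimulated cells, which allows shares of cells with such a UMI of up to 0.925% and 1.5% and sets no limit on cells that express the gene. The sort held no cell type that lacks interferon targets, so their background from free RNA could not be read in the same way.

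Clones were read from the TCR libraries of both tumors, as cells whose alpha and beta chains both have the same V gene, J gene and CDR3 bases. A clone could be given to 237 of 398 CD8-IFNγRKO (59.5%) and 136 of 244 control interferon-stimulated cells (55.7%), against 69.2% and 60.4% of other cells. Of these, 86.1% (81.0 to 90.2) and 91.9% (86.0 to 95.9) were in clones of 2 or more cells, against 94.2% and 95.9% of other cells. The intervals overlapped those of other cells in the control library (95.2 to 96.4) and not in the CD8-IFNγRKO library (93.6 to 94.8).

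Interferon-stimulated cells spread over 67 clones in the CD8-IFNγRKO and 38 in the control library. The largest clone held 44 of them (18.6%) and 33 (24.3%), while the largest clone of other cells held 24.9% and 25.8%. Each of the 10 largest clones of a library contained such cells, from 1.5% to 9.40% of the clone in the CD8-IFNγRKO library and from 1.31% to 6.78% in the control library. Of all clones of 20 or more cells, 23 of 25 and 16 of 22 contained them. All 204 and 125 cells in expanded clones shared their clone with at least 1 cell that was not interferon-stimulated. Interferon-stimulated cells were 4.61% and 3.43% of filtered cells. Large clones are thus likely to hold cells of both kinds by size alone, and these counts test nothing. Cells of 1 clone may come from 1 mouse, and clone and mouse cannot be told apart here.

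In the LN, the same rule gave cells with the same list. The type I list medians against other cells were 2.10 in the CD8-IFNγRKO library and 1.98 in the control library, with 48 of 49 and 51 of 51 genes past 1.5-fold, beside 6.79% and 6.6% of all genes ranked in the LN, and those of the IFNγ-response list 0.97 and 0.79. Isg15 stood at 1096 and 1125 CPM, against 62.6 and 67.9 in other cells. Usp18 stood at 397 and 267 CPM against 25.1 and 25.6, and Irf7 at 490.1 and 489 against 91.6 and 86.2. Pdcd1 gave 0 and 2.67 CPM in LN interferon-stimulated cells, where the tumor gave 628 and 815, so that interferon targets were also high in cells with Pdcd1 at or near 0.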

How the data were processed

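Single-cell 5′ gene expression libraries of sorted CD8 T cells from tumors and LN were used, with the TCR libraries of both tumors. The authors used Cell Ranger (6.0.0 per the file headers) with mm10 per the submitters' processing notes, and raw UMI counts per gene (32285) and barcode were deposited without normalization. No depth correction was applied before pooling. Software was Python 3.11.15 with scipy 1.17.1, numpy 2.4.6, pandas 2.3.3 and matplotlib 3.10.9.

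The cells and the gene lists were chosen with earlier results of these data known. With 1 library of 3 pooled mice per genotype and tissue, cells are not replicates, and no test was run. Ratios are of pooled CPM, with conditional binomial intervals (tested on simulated data), Poisson intervals for CPM and Clopper-Pearson intervals (95%) for shares. A list gene needed 20 UMIs and a ranked gene 50 CPM and 100 UMIs. Shares of all genes given beside a list are of ranked genes, which are not matched in level to low list genes. A group at 0 was set to 3 counts. Where such a bound lay on the opposite side of equality, no ratio was given. Genes named were the receptors, the 4 most abundant of each list, the 12 highest and 12 lowest outside the lists, and the 8 highest and 8 lowest between genotypes, without TCR, mitochondrial, ribosomal, sex-linked and choosing genes. Doublets were not called, and deep cells were kept. The medians of lists leave out genes without a ratio. Alternatives changed the limit on UMIs, depth, filters and scaling. Promoters are RefSeq's, on GRCm38.p6. Some genes of the lists are not reported here.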

Additional observations from a re-analysis of the deposited data

Results flagged for a closer look

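Barcodes outside the filters also held cells with 5 or more UMIs of Ifit1, Ifit3 and Rsad2, in data that none of the comparisons used. In the CD8-IFNγRKO tumor library 92 of 3576 such barcodes reached the limit (2.57%), against 45 of 4263 in the control tumor library (1.06%). In the CD8-IFNγRKO LN library 37 of 4544 did (0.814%), against 32 of 6321 in the control LN library (0.506%). The difference was not tested, since each value comes from 1 library. The median depth of the barcodes left out was 2788 UMIs in the CD8-IFNγRKO tumor and 3498 in the control tumor.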

How the results depend on the processing

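Of 159 alternative values of the main results, 122 stayed within counting error and 37 moved. The list medians among them changed sign 0 times, while shares and counts have no sign to change. The order of the genotypes in the share of interferon-stimulated cells turned at 4000 UMIs. Of the alternative values of single genes, 459 stayed, 180 moved and 1 reversed. No paired analysis was possible because each genotype and tissue gave 1 library, and no replicate could be left out. The share of interferon-stimulated cells in the CD8-IFNγRKO and control libraries was 8.89% and 6.47% with a limit of 3 UMIs, 1.68% and 1.21% with 10, 5.71% and 4.67% with 500 CPM and 2 UMIs, 2.66% and 1.46% without Ifit1, 2.70% and 2.25% without Ifit3, 3.54% and 2.70% without Rsad2, and 1.33% and 1.43% at 4000 UMIs. At 1600 UMIs that of CD8-IFNγRKO was 3.66%. The type I medians against other cells were 1.72 and 1.75 with the limit of 10, 1.88 and 1.90 with 500 CPM, 1.94 and 2.03 at 4000 UMIs, and 1.65 (CD8-IFNγRKO) with the mean of cell CPM. Those of the IFNγ-response list were 0.67 (control) with the limit of 10, 0.76 and 0.67 with 500 CPM, 0.84 and 0.77 at 4000 UMIs, and in the CD8-IFNγRKO library 0.59 with the mean of cell CPM, 0.63 without Ifit1 and 0.64 without Rsad2. Between genotypes in other cells, the type I median was 0.32 at 4000 UMIs and 0.088 over genes with 50 CPM, and the IFNγ-response median -0.18 with the mean of cell CPM. Over 13 settings the latter ranged from -0.29 to -0.18, and in interferon-stimulated cells from -0.13 to -0.01. The type I median ranged from 0.088 to 0.32 in other cells and from 0.0033 to 0.20 in interferon-stimulated cells. The 103 genes became 177 with 500 CPM and 25 with a minimum of 200 CPM, where fewer genes are ranked. Cells in expanded clones made up 95.9% (control) with the limit of 10 and 79.2% (CD8-IFNγRKO) with 500 CPM. Cd74 reversed to -0.53 without cells with macrophage UMIs. With a limit of 3 UMIs, Areg moved to -3.87 and Ifitm1 to -1.92, and with 500 CPM Gzmd to -6.32, Gzme to -4.31, Nrn1 to -3.17, Spp1 to -1.39 and Xcl1 to 4.31, each in its former direction between genotypes. The cause of the other shifts was not tested. Depth limits the values of low genes, and the libraries' mice could not be separated.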

Other observations

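Genes of T cell receptor stimulation and of survival were also read in interferon-stimulated cells. Of 19 immediate early genes, 2 were 1.5-fold or more higher in both tumor libraries, beside 3.3% of all genes ranked. They were Cd69, an early activation marker that type I interferon also induces, at 185 CPM against 111 in the CD8-IFNγRKO library and 120 against 74.4 in the control library, and Egr3, at 2.17 against 0.989 and 6.44 against 2.27, both named after their values were seen. Junb, the most abundant of them, had log2 ratios of 0.22 and 0.13. Of 21 apoptosis genes 1 was past 1.5-fold in both libraries, a share near the 3.3% of all genes. It was Casp4, a caspase of pyroptosis, with 0.60 and 0.75, and Casp8 stood at 0.51 and 0.56. The survival factor Mcl1 had 0.25 and 0.23.

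Glycolysis genes were slightly lower than in other cells, with medians of -0.17 and -0.13 over 14 genes. Of these, 0 passed 1.5-fold in both libraries, beside 3.3% of all genes ranked that were higher and 0.0962% that were lower. Gapdh stood at 8597 CPM against 9114 and 6853 against 7354, and Ldha, which makes lactate, at 2144 against 2474 and 1558 against 1738. The 12 NF-κB genes had medians of 0.03 and 0.11, with Nfkbia at 0.02 and 0.12. Among chemokines, Ccl5 stood at 3754 CPM against 2708 in the CD8-IFNγRKO library, a log2 ratio of 0.47, and at 9285 against 8138 in the control library, 0.19.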
